A study of Mus musculus with 30 samples.

Results

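The genes described here make cholesterol and fatty acids and are known targets of the sterol regulatory element binding proteins (SREBPs), together with the SREBP genes themselves. They were taken by name from a list of 36 genes, which was drawn up with earlier results of these data known. The arrays held 64 probe sets for 32 of the 36 genes, among 22626 probe sets and 12393 named genes in all. Acat2, Insig1, Acsl1 and Acsl3 were not analysed here. Each gene was represented by its probe set with the highest mean over all arrays. Only probe sets whose log2 values averaged 4 or more over the arrays were tested, which kept 30 of the 32 genes and left out Acaca and Hsd17b7.

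Expression was measured in forebrain of 30 male C57BL mice, with 1 Affymetrix MOE430A array per mouse and no pooling. The 3 groups of 10 mice received clozapine at 12 mg/kg/day, haloperidol at 1.6 mg/kg/day, or no drug, for 12 weeks, with the drugs in the drinking water. No genotype beyond the strain is given, and every mouse was housed singly. The labels give an age of 4 weeks, name the hemisphere as right in some fields and left in another, and name clozapine in the note on the haloperidol dose. Both are antipsychotics: clozapine, an atypical one, has many receptor targets, whereas haloperidol, a typical one, mainly blocks dopamine receptors. The design sets each drug against untreated mice and the drugs against each other, to compare their long-term expression profiles. Values are log2 intensities, so a difference of 1 is a doubling.

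SREBPs are transcription factors held in the membrane of the endoplasmic reticulum. When membrane sterol is low, the escort protein SCAP carries them to the Golgi, where proteases release the part that enters the nucleus and binds sterol regulatory elements. SREBP-2, from Srebf2, acts mainly on cholesterol synthesis and uptake, and SREBP-1, from Srebf1, mainly on fatty acid synthesis. The brain makes its own cholesterol, because lipoproteins hardly cross the blood-brain barrier, and much of it goes into myelin. Both drugs are cationic and amphiphilic, and antipsychotics of this kind are known to raise SREBP target genes in cultured cells.

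The promoters of 3 members are shown: those of Srebf2 and Hmgcs1, which hold a sterol regulatory element core, and that of Mvk. By the probe set with the highest mean of each gene, Mvk was the member with the smallest limma p against control in both drug groups. The Mvk window holds CCAAT boxes and no such core. Each run is the 250 bases before the start of transcription in RefSeq on GRCm38.p6, read 5′ to 3′. Capitals mark the sterol regulatory element core TCACCCCA, which overlaps CACCCCAC and TCACNCCAC in Hmgcs1, and the CCAAT box, written ATTGG where it lies on the other strand.
Srebf2, chr15:82147019-82147268, plus strand: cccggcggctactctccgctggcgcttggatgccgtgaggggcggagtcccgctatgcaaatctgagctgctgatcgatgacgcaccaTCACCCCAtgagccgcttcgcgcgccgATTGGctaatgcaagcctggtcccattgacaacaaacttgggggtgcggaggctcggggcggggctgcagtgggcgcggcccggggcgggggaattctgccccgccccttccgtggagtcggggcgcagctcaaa
Hmgcs1, chr13:119690101-119690350, plus strand: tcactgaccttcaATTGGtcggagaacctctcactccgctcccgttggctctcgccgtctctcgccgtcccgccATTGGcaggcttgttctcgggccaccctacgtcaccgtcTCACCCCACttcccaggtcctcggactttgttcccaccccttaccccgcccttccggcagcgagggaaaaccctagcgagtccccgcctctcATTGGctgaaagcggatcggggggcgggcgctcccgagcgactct
Mvk, chr5:114444019-114444268, plus strand: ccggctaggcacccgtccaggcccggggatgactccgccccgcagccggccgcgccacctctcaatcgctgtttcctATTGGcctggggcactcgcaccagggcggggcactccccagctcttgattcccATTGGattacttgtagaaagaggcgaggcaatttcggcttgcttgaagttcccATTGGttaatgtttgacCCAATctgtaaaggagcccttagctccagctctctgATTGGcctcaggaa

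A promoter was found for 25 of the 32 measured members, with 32 promoters in all. In a search of both strands, TCACCCCA was present in 2 of the 32, those of Srebf2 and Hmgcs1, and in 1.34% of 32851 mouse promoters of the same length. CACCCCAC was present in 1 of 32 and in 2.58% of all promoters, and TCACNCCAC in 1 of 32 and in 1.05%. The core started 162 bases before the start of transcription in Srebf2 and 137 bases before it in Hmgcs1. The CCAAT box, which binds NF-Y, a factor that works beside SREBPs, was present in 22 of 32 member promoters, 68.8%, against 33.8% of all promoters. The Mvk window held 5 CCAAT boxes. These matches describe the letters of the windows and do not show binding.

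The arrays did not all resemble each other. Grouped by correlation alone, with treatment hidden, they formed cluster A with 11 arrays (3 control, 3 clozapine, 5 haloperidol), cluster B with 8 (4, 1 and 3), cluster C with 7 (2, 5 and 0) and 4 arrays on their own, control 1, clozapine 7, haloperidol 2 and haloperidol 7. The clusters were the same for 30 of 30 arrays when the probe sets of the members were left out. They followed the replicate numbers in part. Every array of A had a number from 1 to 6, while B held control 7 to 10, haloperidol 8 to 10 and clozapine 1. Cluster C held control 4 and 6 and clozapine 2, 6, 8, 9 and 10. What the numbers stand for is not given in the labels. RNA quality was read from the Gapdh and Actb controls, whose 3′ minus 5′ difference widens as RNA degrades; it was 4.09 in control 1, 2.45 in haloperidol 7 and 0.47 to 1.36 in the other arrays. Markers of neurons (7 of 7), astrocytes (7 of 7) and oligodendrocytes (8 of 8 measured) had a mean of at least 4, while 0 of 2 blood and 0 of 3 pituitary markers did.

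In clozapine-treated mice, most members had a mean slightly above that of control mice. Of 30 genes, 20 had a higher and 10 a lower mean, and the median difference was 0.069 on the log2 scale. Over all 12944 probe sets tested, 55.3% were higher, and the median difference was 0.023. After correction no member was called: limma's adjusted p was under 0.05 for 0 of 12944 probe sets (0%), while 563 had an unadjusted p under 0.05. At that unadjusted level, on 1 probe set per gene, 1 member, Mvk, was higher (2.12% of all probe sets were) and 0 were lower (2.22% of all).

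In haloperidol-treated mice, 11 members had a higher and 19 a lower mean than control. The median difference was -0.063, against -0.030 over all probe sets, of which 43.5% were higher. Limma called 0 of 12944 (0%), and 298 had an unadjusted p under 0.05. At that level 1 member was higher, again Mvk (0.834% of all probe sets), and 0 were lower (1.47%). Both drug comparisons use the same control mice, so the shared Mvk value is not independent.

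Between the drugs, 20 members had a higher and 10 a lower mean in clozapine than in haloperidol, with a median difference of 0.099 against 0.050 over all probe sets, of which 60.7% were higher. Limma called 0 of 12944 (0%), and 406 had an unadjusted p under 0.05. At that level 0 members were higher (2.21% of all) and 0 were lower (0.927%). The confidence intervals give the sizes of difference that the data allow. For clozapine against control the 95% confidence interval ran from -0.17 to 0.26 for Fdft1 and from -1.40 to 0.65 for Tm7sf2.

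**Figure D1:**
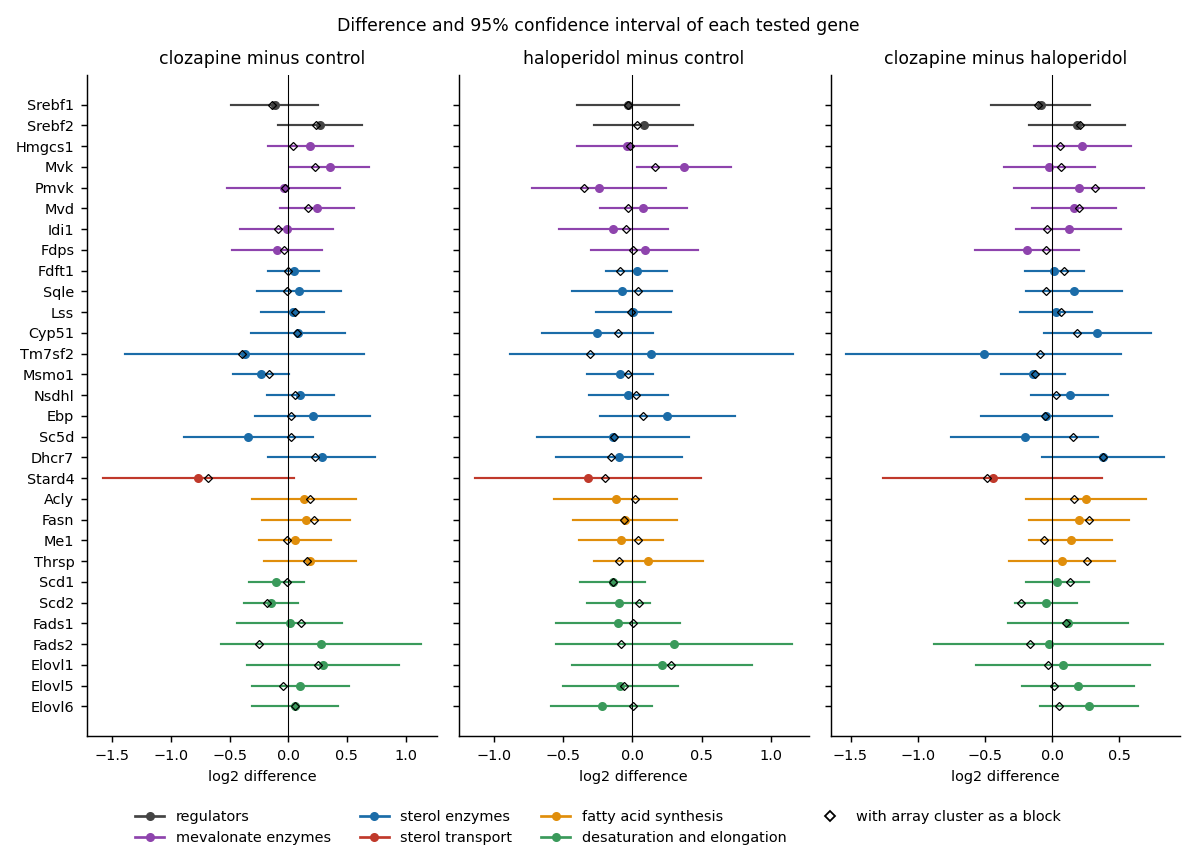
Difference of group means on the log2 scale (x axis) for the 30 tested genes (y axis), in clozapine against control, haloperidol against control and clozapine against haloperidol. Points and lines give the limma difference and its 95% confidence interval, coloured by role, and open diamonds give the difference with array cluster as a block; the intervals of all genes but Mvk reached 0 in both comparisons with control, and between the drugs all did.

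Of the regulators, Srebf2 had log2 values of 7.42 to 8.69 in control (median 8.12), 8.13 to 8.72 in clozapine (median 8.32) and 7.31 to 9.28 in haloperidol (median 8.11). The groups overlapped, but the control mean was exceeded in 10 of 10 clozapine arrays. The difference for clozapine against control was 0.27 (SE 0.17), or 1.21-fold, with limma's unadjusted p = 0.134 and adjusted p = 1. Without control 1, the lowest control array, it was 0.19. A second Srebf2 probe set gave 0.21 (SE 0.53) and ranged in control from 3.28 in control 1 to 8.79. Its median was lower in clozapine, at 7.91, than in control, at 8.32. Without control 1, haloperidol 2 and haloperidol 7 its difference was -0.28 (SE 0.26).

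Srebf1 had values of 6.16 to 7.12 in control (median 6.32), 5.76 to 6.63 in clozapine (median 6.31) and 5.39 to 7.68 in haloperidol (median 6.35). Its differences were -0.12 (SE 0.18) for clozapine and -0.034 (SE 0.18) for haloperidol. The extremes of the haloperidol group were haloperidol 7 and haloperidol 2, which also held the extremes of Srebf2.

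The mevalonate pathway turns acetyl-CoA into the isoprenoid units of sterols. Mvk encodes mevalonate kinase, which adds the first phosphate to mevalonate. Its values were 3.86 to 5.01 in control (median 4.69), 4.57 to 5.46 in clozapine (median 4.79) and 4.55 to 5.86 in haloperidol (median 4.75). All 3 groups overlapped, and control 1 lay below every other array. The difference was 0.35 (SE 0.17, unadjusted p = 0.042) for clozapine and 0.37 (SE 0.17, p = 0.032) for haloperidol, and 9 of 10 arrays of each drug lay above the control mean (limma, adjusted p = 1 for both). The 2 drugs differed by -0.022 (95% confidence interval -0.36 to 0.32).

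These Mvk differences depended on few arrays. Without control 1 the clozapine difference was 0.27 (p = 0.10), and without haloperidol 2 the haloperidol difference was 0.27 (p = 0.081, limma, unadjusted). Within clusters the clozapine difference was 0.11 in A, 0.20 in B with its 1 clozapine array, and 0.39 in C, and the haloperidol difference was 0.15 in A and 0.098 in B. A second Mvk probe set had a mean under 4 and was not tested; its differences were 0.25 and 0.0087.

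Hmgcs1 encodes the cytosolic HMG-CoA synthase, which makes an early intermediate of the mevalonate pathway. Its values were 10.79 to 11.51 in control (median 11.15), 11.001 to 11.81 in clozapine (median 11.39) and 9.82 to 11.97 in haloperidol (median 11.16). The clozapine and control ranges overlapped widely, and the haloperidol extremes were again haloperidol 2 and haloperidol 7. The difference was 0.19 (SE 0.18) for clozapine and -0.036 (SE 0.18) for haloperidol. The other 3 Hmgcs1 probe sets had the opposite sign for clozapine, at -0.065, -0.14 and -0.29, and with array cluster as a block the first gave 0.041.

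Among the other enzymes of this stage, Mvd, the decarboxylase that ends the mevalonate steps, differed by 0.24 (SE 0.15) in clozapine and 0.078 (SE 0.15) in haloperidol. Pmvk, which adds the second phosphate, differed by -0.040 and -0.24. Idi1, the isomerase of isopentenyl diphosphate, differed by -0.015 and -0.14. Fdps, which joins isoprenoid units into farnesyl diphosphate, differed by -0.098 and 0.089. None of these had an unadjusted p under 0.05.

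**Figure D2:**
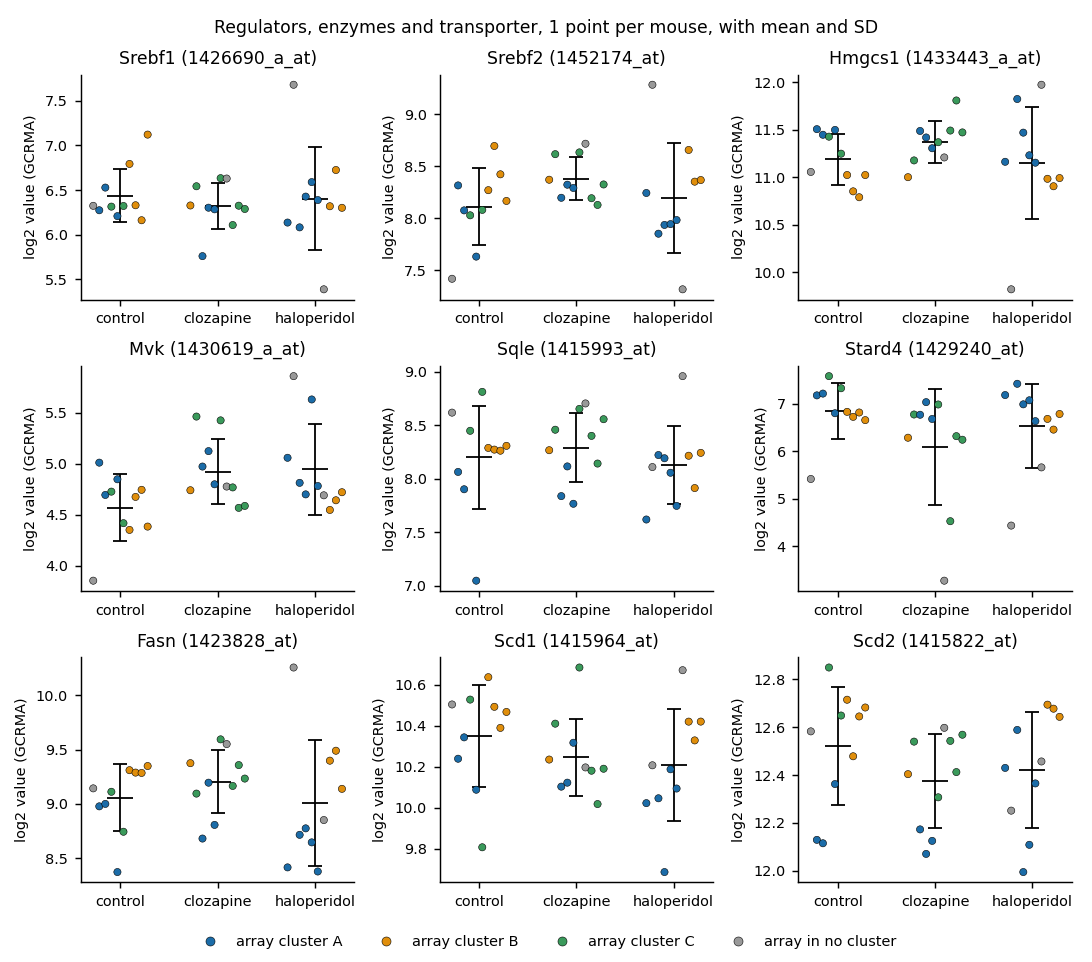
Deposited log2 value (y axis) of 9 genes in each of 30 mice by treatment group (x axis), with 1 point per mouse coloured by array cluster, and bars for the group mean and SD. Groups overlapped in all 9 panels, haloperidol 2 and haloperidol 7 gave the extremes of haloperidol for Srebf1, Srebf2 and Hmgcs1, and Stard4 was lowest in clozapine 7 at 3.27.

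The later enzymes turn farnesyl diphosphate into cholesterol. Sqle encodes squalene epoxidase, a rate-limiting enzyme of sterol synthesis. It had values of 7.05 to 8.81 in control (median 8.28), 7.77 to 8.70 in clozapine (median 8.33) and 7.62 to 8.96 in haloperidol (median 8.15). The ranges overlapped over most of their length, and the differences were 0.088 (SE 0.18) for clozapine and -0.075 (SE 0.18) for haloperidol.

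Of the 10 tested enzymes after farnesyl diphosphate, 7 had a higher mean in clozapine than in control and 4 in haloperidol, and 0 had an unadjusted p under 0.05 in either. Msmo1, a sterol C4-methyl oxidase, was nearest to that level in clozapine: its difference was -0.24 (SE 0.12, p = 0.053, adjusted p = 1 by limma), 9 of 10 clozapine arrays were under the mean of the controls, and without control 1 it was -0.17. Dhcr7, the 7-dehydrocholesterol reductase that completes one route to cholesterol, differed by 0.29 (SE 0.22) in clozapine and -0.095 in haloperidol, and without control 5 the clozapine value was 0.16. Ebp, the sterol isomerase, differed by 0.21 and 0.25 (SE 0.24 each). Sc5d, the desaturase that precedes Dhcr7, differed by -0.34 (SE 0.27) and -0.14.

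Cyp51, the lanosterol demethylase, differed by 0.082 in clozapine and -0.26 in haloperidol (SE 0.20 each). Clozapine exceeded haloperidol by 0.34 in Cyp51 (unadjusted p = 0.096) and by 0.38 in Dhcr7 (p = 0.099, limma). Tm7sf2, a sterol C14-reductase, had the widest spread of these enzymes, with an SD of 1.09 to 1.26 within groups and differences of -0.37 and 0.14 (SE 0.50). Fdft1, the squalene synthase, Lss, the lanosterol synthase, and Nsdhl, a C4-decarboxylating dehydrogenase, differed little from control on their highest probe set. These differences were at most 0.10 in either drug. A second tested Lss probe set gave 0.40 in clozapine and -0.064 in haloperidol (SE 0.32 each). Second tested probe sets also gave 0.47 and 0.069 for Cyp51 (SE 0.30 each), and -0.12 and -0.070 for Fdft1 (SE 0.13 each). Hsd17b7, a sterol ketone reductase, had a mean of 2.77 and was not tested.

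Stard4 encodes a soluble carrier that moves cholesterol between membranes, and it showed the difference farthest from 0 among the 30 genes. Its values were 5.42 to 7.58 in control (median 6.82), 3.27 to 7.04 in clozapine (median 6.50) and 4.43 to 7.42 in haloperidol (median 6.73). In clozapine, clozapine 7 at 3.27 and clozapine 8 at 4.53 stood far below the other 8 arrays, which lay between 6.24 and 7.04. The lowest arrays of the other groups were control 1 at 5.42 and haloperidol 2 at 4.43, so 3 of these 4 low arrays belonged to no cluster. The difference was -0.77 (SE 0.40), or 0.588-fold, in clozapine (limma, unadjusted p = 0.065, adjusted p = 1) and -0.32 (SE 0.40) in haloperidol.

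A second Stard4 probe set went the same way in clozapine. Its values were 4.53 to 7.42 in control (median 6.73), 4.56 to 6.11 in clozapine (median 5.45) and 4.34 to 7.35 in haloperidol (median 6.22). Here the clozapine median lay well below the control median and did not rest on a pair of arrays, though the groups overlapped. The difference was -0.96 (SE 0.37, p = 0.016 before adjustment, adjusted p = 1 by limma) in clozapine and -0.40 (SE 0.37) in haloperidol. Within clusters the clozapine differences of the first and second probe sets were -0.24 and -0.18 in A, -1.29 and -0.98 in C, and -0.47 and -1.83 in B, where 1 array was from clozapine. Without clozapine 7 the first probe set gave -0.45 (p = 0.183). The 3′ minus 5′ difference that tracks RNA quality was, on the log2 scale, 0.62 to 1.24 in clozapine (median 0.88), 0.47 to 4.09 in control (median 0.67) and 0.47 to 2.45 in haloperidol (median 0.56). Within groups the first and second probe sets correlated with it at -0.46 and -0.68. With that difference as a covariate the clozapine values were -0.84 (SE 0.36, unadjusted p = 0.026, adjusted p = 0.551 by limma) for the first probe set and -1.07 (SE 0.28, p = 0.00069, adjusted p = 0.351 by limma) for the second. This fit includes control 1 at 4.09, far from the next control array, control 4 at 1.36. It was not run without control 1, and the part of RNA quality in the Stard4 values was not tested. Of the 6 tested microglial markers 3 were higher and 3 lower in clozapine; Cx3cr1, a chemokine receptor of microglia, was lowest in clozapine 7 too, at 3.81, and differed by -1.06 (SE 0.40, limma, unadjusted p = 0.012, adjusted p = 1). The part of microglial RNA in the Stard4 values was not tested.

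**Figure D3:**
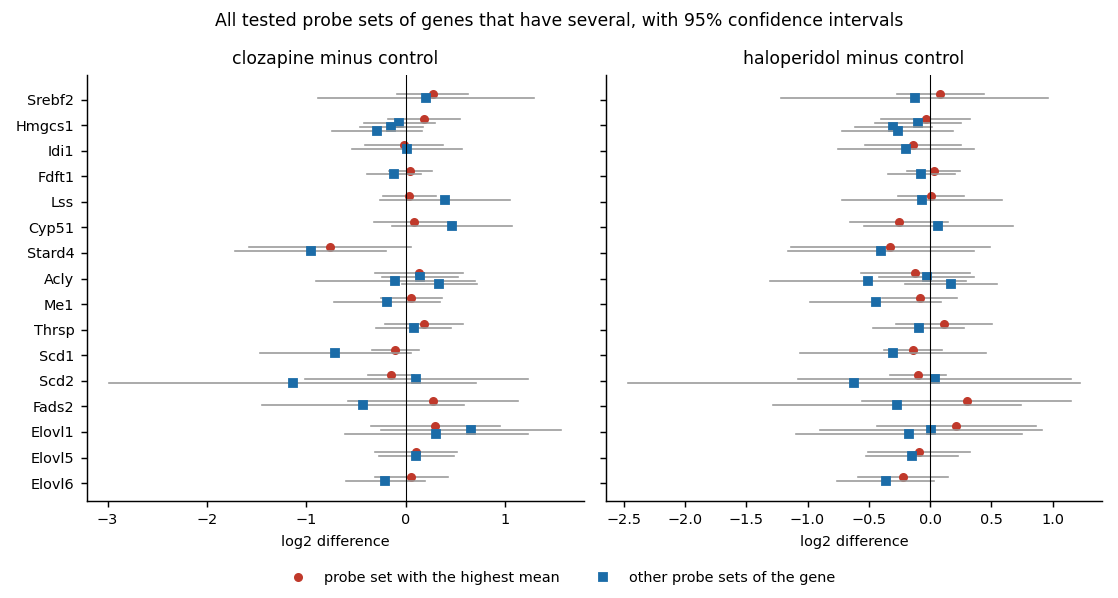
Log2 difference and 95% confidence interval (x axis) of every tested probe set of the 16 genes (y axis) that have more than 1, for clozapine and haloperidol against control. Red circles mark the probe set with the highest mean and blue squares the others; both Stard4 probe sets were below 0 for clozapine, at -0.77 and -0.96, while those of 8 genes, Hmgcs1, Idi1, Fdft1, Acly, Me1, Scd2, Fads2 and Elovl6, lay on both sides of 0 for that drug.

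Fatty acids are built from citrate by ATP citrate lyase (Acly), acetyl-CoA carboxylase and fatty acid synthase (Fasn), with NADPH from malic enzyme (Me1). All 4 tested genes of this stage had a higher mean in clozapine than in control on their probe set with the highest mean, while further tested probe sets of Me1 (-0.19) and Acly (-0.11) had a lower one. Fasn had values of 8.37 to 9.35 in control (median 9.13), 8.68 to 9.59 in clozapine (median 9.21) and 8.38 to 10.26 in haloperidol (median 8.81). The clozapine values covered nearly the same range as the control values, and haloperidol 2 lay above all other arrays. Its difference was 0.15 (SE 0.18) for clozapine, -0.052 (SE 0.18) for haloperidol and 0.20 (SE 0.18) between the drugs.

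Acly differed by 0.13 (SE 0.22) in clozapine and -0.12 in haloperidol. Me1 differed by 0.055 and -0.082 (SE 0.15). Thrsp, a regulator of lipogenesis known from liver and fat, differed by 0.19 and 0.12 (SE 0.19). A second tested Thrsp probe set gave 0.079 and -0.094 (SE 0.18 each). None of the 4 had an unadjusted p under 0.05, and each interval reached well to both sides of 0. Acaca, the carboxylase, had a mean of 2.37 and was not tested.

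Desaturases and elongases finish the fatty acids. Scd1, a stearoyl-CoA desaturase, had values of 9.81 to 10.64 in control (median 10.43), 10.02 to 10.68 in clozapine (median 10.19) and 9.69 to 10.67 in haloperidol (median 10.20). The medians of both drug groups lay below the control median within overlapping ranges. The differences were -0.10 (SE 0.12) and -0.14 (SE 0.12), and a second probe set gave -0.71 (SE 0.37, unadjusted p = 0.065, adjusted p = 1 by limma) and -0.30. That probe set averaged only 4.70, and its cluster means were 4.44 (A), 5.97 (B) and 4.24 (C). Its clozapine difference shrank to -0.24 (SE 0.21, limma, unadjusted p = 0.25) with array cluster as a block. Cluster by cluster it came to -0.059 (A), -0.75 (B, where clozapine has 1 array) and 0.016 (C). Leaving out control 1, haloperidol 2 and haloperidol 7 instead gave -0.86.

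Scd2, the stearoyl-CoA desaturase known to be abundant in brain, had values of 12.12 to 12.85 in control (median 12.61), 12.07 to 12.60 in clozapine (median 12.41) and 12.00 to 12.69 in haloperidol (median 12.44). The differences were -0.15 (SE 0.11) and -0.10 (SE 0.11). The other 2 probe sets gave 0.11 (SE 0.55) and -1.14 (SE 0.90) in clozapine, and their lowest control array was control 1 in each case, at 6.10 and 4.30. Control 1 was also the array with the widest 3′ minus 5′ difference, whose part in these values was not tested.

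Fads2, the delta-6 desaturase, depended on the same array. Its difference was 0.28 (SE 0.42) in clozapine and 0.30 (SE 0.42) in haloperidol, where control 1 at 4.11 lay far below the next control array at 8.77. Without control 1 the differences were -0.23 and -0.21. Fads1, the delta-5 desaturase, differed by 0.011 and -0.11 (SE 0.22). The elongases Elovl1, Elovl5 and Elovl6 differed by 0.30, 0.10 and 0.056 in clozapine and by 0.21, -0.087 and -0.22 in haloperidol. Other tested probe sets of Elovl1 gave 0.66 (SE 0.44) and 0.31 (SE 0.45) in clozapine, and 0.0049 and -0.17 in haloperidol. Those of Elovl5 and Elovl6 gave 0.11 and -0.21 in clozapine, and -0.15 and -0.36 in haloperidol. None of the 7 genes of this stage had an unadjusted p under 0.05.

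The fatty acid genes lay at different levels in the array clusters. The mean level of the 11 fatty acid genes, as a deviation from each gene's mean over 30 arrays, was -0.022 ± 0.28 (SD, n = 10) in control, 0.070 ± 0.21 in clozapine and -0.048 ± 0.28 in haloperidol. In the arrays of cluster A it was -0.28 ± 0.14 (n = 11), in those of B 0.18 ± 0.058 (n = 8), and in those of C 0.15 ± 0.094 (n = 7). All 11 arrays of A lay between -0.62 and -0.11, and the 15 arrays of B and C between -0.0062 and 0.26, so A did not overlap with B and C. The clusters were made from the same arrays, so these values are a description with no test.

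By gene, A had the lowest mean of the 3 clusters for 9 of 11 fatty acid genes, against 46.6% of all probe sets tested, and the highest for 1 of 11, against 31.6%. On their probe set with the highest mean, every array of A lay below every array of B and C in Acly, Fads1 and Elovl5. This held for 3.62% of all probe sets. Acly lay between 9.06 and 9.94 in A and between 10.20 and 10.72 in B and C. Fads1 lay between 8.17 and 9.07 in A, and its lowest value in B and C was 9.25. The other tested probe sets of Acly and Elovl5 overlapped between A and the other clusters. An Acly probe set went the other way, with means of 4.49 in A, 3.70 in B and 4.22 in C. Of the 17 sterol genes, A had the lowest mean for 6 and the highest for 8, and their mean level was 0.048 in A, -0.051 in B and 0.014 in C. Tm7sf2 went the other way from the fatty acid genes, at 6.97 ± 0.49 in A against 5.03 ± 0.17 in B and 5.04 ± 0.81 in C.

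**Figure D4:**
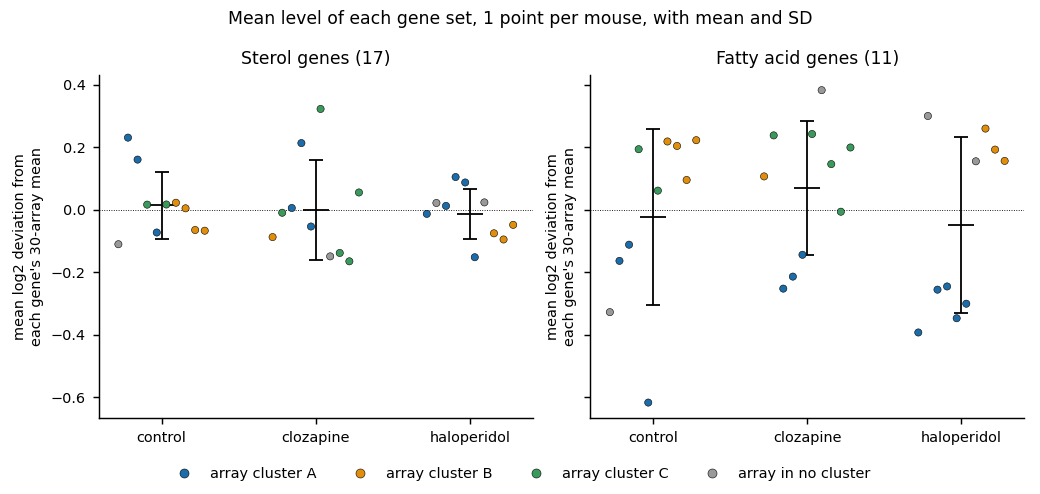
Mean deviation of the 17 sterol genes (left) and 11 fatty acid genes (right) from each gene's mean over 30 arrays on the log2 scale (y axis), by treatment group (x axis), with 1 point per mouse coloured by array cluster and bars for the group mean and SD. The treatment groups overlapped in both panels, and the 11 arrays of cluster A, at -0.62 to -0.11, lay below all arrays of B and C in the fatty acid genes.

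Markers of several cell types lay at different levels in the clusters too, not all in 1 direction. The mean level of the 8 oligodendrocyte markers was -0.22 ± 0.098 in A (-0.36 to -0.016), 0.11 ± 0.072 in B (0.033 to 0.24) and 0.11 ± 0.092 in C (-0.0068 to 0.26), and A had the lowest mean for 6 of 8. The 7 neuronal markers lay at -0.21 ± 0.17 in A, 0.43 ± 0.055 in B and -0.045 ± 0.14 in C. The 3 choroid plexus markers were lowest in A for 3 of 3, at -0.42 ± 0.29 in A, 0.30 ± 0.19 in B and 0.067 ± 0.23 in C. The 5 endothelial markers lay at -0.13 ± 0.21, 0.094 ± 0.076 and 0.054 ± 0.047. The mean level of the 7 astrocyte markers went the other way, with 0.096 ± 0.12 in A, -0.036 ± 0.065 in B and -0.13 ± 0.11 in C. By gene they were divided, as A had the lowest mean for 4 of 7 and the highest for 3. The mean level of the 6 microglial markers differed little beside its spread, at 0.051 ± 0.18, -0.062 ± 0.12 and 0.0027 ± 0.20. Single microglial markers differed more: the median absolute difference between A and B was 0.53, against 0.36 over all probe sets tested. Cluster A had the highest mean for 4 of 6 and the lowest for 1. The marker means over all arrays started at 7.67 for oligodendrocytes and 8.56 for neurons, so none was near 0. By treatment the oligodendrocyte level was 0.067 ± 0.23 in control, -0.0031 ± 0.22 in clozapine and -0.064 ± 0.16 in haloperidol. In bulk tissue, fewer cells of a type and less RNA per cell cannot be told apart. The part of cell composition or dissection in the fatty acid gene values was not tested.

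With array cluster as a block, which compares treatments within clusters, the median member difference was 0.020 for clozapine, -0.032 for haloperidol and 0.055 between the drugs. Each of the 4 arrays on their own was its own block and adds nothing to these differences. The treatments are uneven over the clusters, as C holds 0 haloperidol arrays and B holds 1 from clozapine. The blocks were also made from the same values that are tested. For clozapine against control, 1 member was higher at an unadjusted p under 0.05 (3.89% of all probe sets), Srebf2 at 0.24 (p = 0.036, limma). At the same level 3 members were lower (3.04% of all): Stard4 at -0.68 (p = 0.0087), Scd2 at -0.18 (p = 0.035) and Fads2 at -0.25 (p = 0.047, limma). The second Srebf2 probe set went the other way from the first in this fit, at -0.071 (SE 0.27). For haloperidol 0 were higher (1.32%) and 0 lower (2.92%), and Mvk was at 0.16. Between the drugs 1 was higher (3.99%), Fasn at 0.28 (p = 0.033), and 1 lower (1.9%), Scd2 at -0.23 (p = 0.019, limma). No member had an adjusted p under 0.05 in this fit.

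Leaving out the 3 arrays that correlated least with their groups, control 1, haloperidol 2 and haloperidol 7, changed some of these counts. For clozapine against control, 2 members were higher at an unadjusted p under 0.05 (6.17% of all), Mvd at 0.29 (p = 0.0099) and Thrsp at 0.27 (p = 0.048, limma). At that level 2 were lower (5.19%), Stard4 at -0.93 (p = 0.013) and Fads2 at -0.23 (p = 0.049, limma). The second Thrsp probe set gave 0.060 (SE 0.14) in this fit. For haloperidol, 0 were higher (0.688%) and 1 lower (2.21%), Pmvk at -0.43 (p = 0.040, limma). Between the drugs, 6 were higher (12.5%), which were Pmvk at 0.46, Mvd at 0.32, Cyp51 at 0.45, Dhcr7 at 0.62, Fasn at 0.34 and Thrsp at 0.33, and 1 was lower (5.22%), Stard4 at -0.81. Clozapine 7, the lowest Stard4 array at 3.27 and also in no cluster, was kept here. With clozapine 7 alone left out, Stard4 was at -0.45 against control (p = 0.183, limma, unadjusted) and at -0.13 between the drugs. The members' counts in these fits are to be read against the shares of all probe sets given beside them.

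Weighting arrays by their estimated variance was the only alternative run here under which members passed the correction. Limma with array weights called 1731 probe sets (13.4%) for clozapine against control, among them 4 of 30 members, all higher. They were Hmgcs1 at 0.35 (SE 0.12, adjusted p = 0.049), Mvk at 0.36 (SE 0.12, p = 0.046), Mvd at 0.32 (SE 0.11, p = 0.048) and Thrsp at 0.38 (SE 0.12, p = 0.041, limma). The weights ran from 1.06 to 4.86 in cluster B, which holds 4 control arrays and 1 from clozapine, from 0.34 to 1.47 in A, from 0.78 to 1.69 in C and from 0.14 to 0.62 in the 4 arrays on their own. With weights and array cluster together, 0 probe sets were called in this comparison.

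Other genes of these pathways were read from a second list, also chosen with earlier results of these data known. Of 9 tested genes of sterol regulation, synthesis and uptake, 4 had a higher and 5 a lower mean in clozapine than in control. At an unadjusted p under 0.05, 1 of the 9 was lower in clozapine than in control (2.22% of all probe sets). Against haloperidol 1 was lower too (0.927% of all). In both cases the gene was Mylip, a ubiquitin ligase that acts in sterol uptake and is a target of the sterol-sensing liver X receptors. Its values were 5.85 to 6.76 in control (median 6.39), 5.29 to 6.0 in clozapine (median 5.83) and 5.76 to 7.03 in haloperidol (median 6.03). The clozapine values overlapped with the lower end of the control values, and 10 of 10 lay below the control mean. The difference was -0.55 (SE 0.14, p = 0.00065 before adjustment, adjusted p = 1 by limma) for clozapine, -0.086 (SE 0.14) for haloperidol and -0.46 (p = 0.0032, adjusted p = 0.965 by limma) between the drugs. It was -0.43 within A, -0.60 within B and -0.37 within C.

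Scap, the SREBP escort protein, differed by -0.14 in clozapine and 0.21 in haloperidol, and Insig2, which holds SCAP in the endoplasmic reticulum, by 0.077 and -0.12. Npc1, which exports cholesterol from lysosomes, differed by -0.24 and -0.0012. Of 17 tested genes of fatty acid synthesis and activation beyond the listed members, 8 had a higher and 9 a lower mean in clozapine, 5 and 12 in haloperidol, and 0 had an unadjusted p under 0.05 in any comparison on their highest probe set. The genes of both lists had 18 further tested probe sets. At an unadjusted p under 0.05, 1 of the 18 was lower in clozapine than in control (2.22% of all probe sets), 1 lower in haloperidol than in control (1.47%) and 1 higher in clozapine than in haloperidol (2.21%). In that order these were Acsl4, an acyl-CoA synthetase that prefers arachidonate, at -0.42, Hsd17b12, which acts in fatty acid elongation, at -0.42, and Hacd3, an elongation dehydratase, at 0.29, none of them called by limma.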

How the data were processed

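The deposited values, 1 per probe set and array, are on a log2 scale; per the submitters' processing notes they came from GCRMA, which normalizes between arrays and holds probe sets near background at low values, shrinking their differences. Its version, scan dates and genome build: not given in the sources used here. Of 22690 probe sets, 64 Affymetrix controls were removed, and 12944 averaged 4 or more. The platform annotation gave 20380 probe sets 1 symbol, 691 several and 1555 none; only those with 1 were used, and older symbols were matched through RefSeq.

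Groups followed the sample titles. All 30 arrays entered 1 limma fit (limma 3.58.1, R 4.3.3) of group means, leaving 27 residual degrees of freedom; tests were two-sided and p-values were adjusted by Benjamini-Hochberg over 12944 probe sets. All p-values in the text come from such fits, intervals cover 95%, the median SE was 0.19, and the number of arrays limits the precision. Arrays were clustered by average linkage on 1 minus Pearson correlation and divided into 7 groups, 4 of which hold 1 array. The members, lists, clusters and tests were chosen with earlier results of these data known. All members are named, with values by group for regulators, rate-limiting enzymes, known targets and those at an unadjusted p under 0.05. Arrays and second probe sets singled out beside them were chosen after their values were seen. Promoters are from RefSeq on GRCm38.p6.

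In a test on simulated data for the clozapine and control comparison, 10 draws each changed 200 of 12944 probe sets by mixed sizes. The share recovered was 4.4% at 1.25-fold, 34.4% at 1.5-fold, 73.8% at 2-fold and 95.8% at 4-fold; false calls numbered 89 at most and 1 in the median draw. Alternatives were the filter, quantile normalization, blocks for replicate number and array cluster, RNA quality as a covariate, arrays left out, array weights and the mean of a gene's probe sets.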

Additional observations from a re-analysis of the deposited data

Results flagged for a closer look

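In the 90 sets of 10 arrays made by 30 genes and 3 treatment groups, 12 had an extreme array whose gap to its neighbour was large against the range of the group by Dixon's test. For a single set chance gives about 1 in 20. The 30 genes share the same 10 arrays in each group, so the 90 sets are not independent. The count of 12 is therefore not read against that rate. Of these 12, 6 were haloperidol 2, in which Hmgcs1 was 9.82 (next lowest 10.9), Idi1 6.77, Sc5d 6.85, Mvd 7.17 (next highest 5.91), Fdps 10.26 and Fdft1 10.01. The first 3 were the lowest and the last 3 the highest of their group. Haloperidol 7 was the highest of its group in Sqle, at 8.96.

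In the control group, control 1 was the lowest in Fads2 at 4.11 (next 8.77) and in Stard4 at 5.42 (next 6.66). Control 5 was the lowest in Sqle at 7.05 and in Dhcr7 at 5.83, and control 10 was the lowest in Mvd at 5.22. Control 1, haloperidol 2 and haloperidol 7 belonged to no array cluster, and control 1 and haloperidol 7 had the widest 3′ minus 5′ differences. The part of RNA quality in these values was not tested.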

How the results depend on the processing

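The count of called probe sets was 0 in each comparison and stayed at 0 under every alternative run except 3. Array weights gave 1731 for clozapine against control. For haloperidol against control, array cluster as a block gave 1 and array weights with that block, chosen after the weighted calls were seen, gave 5, with 0 members among them; the cause was not tested. Without control 1, haloperidol 2 or haloperidol 7 in turn, or without any other array, the count was 0. Over 13 alternatives the median member difference ranged from -0.0072 (array weights) to 0.091 for clozapine, from -0.12 to -0.026 for haloperidol, and from 0.053 to 0.17 between the drugs. Single genes were less stable: with array weights 10 of 30 members changed sign for clozapine against control, leaving 14 higher, and 9 for haloperidol, where 8 were lower at an unadjusted p under 0.05 (limma; 14.9% of all probe sets) against 0 with equal weights. With array cluster as a block 6, 13 and 6 of 30 members changed sign in the 3 comparisons, and without haloperidol 2 it was 9 for haloperidol against control. Replicate numbers did not pair single arrays across groups: 5, 5 and 7 of 10 same-numbered pairs had a correlation over 0.1, and 4 of 30 arrays correlated best with their own number. The numbers were still related to the array clusters, as every array of cluster A had a number from 1 to 6. With the replicate block the counts stayed at 0, and the median differences stayed at 0.069, -0.063 and 0.099. At an unadjusted p under 0.05 in this fit, 1 member was higher and 2 lower for clozapine (limma). For haloperidol 1 was higher and 0 lower, and between the drugs 2 were higher and 0 lower. The share of all probe sets at that level in this fit is not given here, so these counts are not read as a result about the members. A filter at a mean of 6 left 25 members.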
